A study of Mus musculus with 17 samples.

Results

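The 31 genes described here make cholesterol, control its manufacture or move it inside the cell. They were named from knowledge of the pathway and matched by symbol, and all 31 are among the 13501 genes of the count table and among the 12074 that had enough reads to be tested. By role, 9 supply carbon or carry it through the mevalonate pathway, 3 build the first sterol from farnesyl units, 9 turn lanosterol into cholesterol, 7 sense sterol and switch the pathway on or off, and 3 carry sterol. The RNA came from mouse brain cells sorted alive as CD45+CD11b+, the surface pair that microglia share with other myeloid cells, and bulk libraries were sequenced. Normal microglia (libraries S36, S20 and S21) came from untreated Trem2-wildtype mice that lack 5xFAD, a set of transgenes that gives amyloid in the brain. Microglia of untreated 5xFAD mice were Trem2 wild type (S22, S23 and S24) or Trem2 knockout (S25, S26 and S27). The remaining 8 libraries held cells that the labels call myeloid and derived from the circulation, taken from Trem2-knockout 5xFAD hosts after bone marrow transplant (BMT) plus PLX5622, a CSF1R inhibitor that removes microglia. The donors were Trem2 wild type (S28, S29, S30 and S31) or Trem2 knockout (S32, S33, S34 and S35). Cell origin and treatment changed together, so they cannot be told apart, and wild-type transplanted cells lived in a knockout host whereas wild-type microglia did not. The labels give no ages.

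Cholesterol is made from acetyl-CoA through mevalonate, isoprenoids, squalene and lanosterol, and the brain makes its own because plasma lipoproteins do not cross into it. When sterol in the endoplasmic reticulum is scarce, the escort protein SCAP carries the SREBP transcription factors to the Golgi, where the site-1 and site-2 proteases release their active part. When sterol is plentiful, INSIG proteins hold SCAP back and the genes of the pathway are transcribed less. Microglia take up lipid-rich debris, and TREM2 is a receptor of these cells that binds lipids and lipoproteins.

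SREBPs bind sterol regulatory elements, often next to sites of NF-Y (letters CCAAT) and Sp1 (letters CCGCCC). RefSeq promoter windows (GRCm38.p6, 250 bases before to 50 after a start) were at hand for 26 of the 31 genes, all but Sqle, Fdft1, Fdps, Npc1 and Stard4. Both strands were searched with the letters TCACNCCAC for the sterol regulatory element, and the 3 motifs do not overlap in the windows printed here. The 4 genes with a window that were called in the most comparisons, and beyond that with the smallest p, are shown from 250 bases before the start, on the gene's own strand, with every match in capitals. Where several starts are listed, the most upstream one is shown.
Hmgcs1, chr13:119690101-119690350, plus strand: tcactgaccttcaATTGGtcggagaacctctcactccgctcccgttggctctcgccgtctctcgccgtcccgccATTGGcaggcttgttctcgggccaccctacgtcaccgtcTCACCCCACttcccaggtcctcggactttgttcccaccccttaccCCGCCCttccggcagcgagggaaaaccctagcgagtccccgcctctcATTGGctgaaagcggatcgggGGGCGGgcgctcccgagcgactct
Insig2, chr1:121332590-121332839, minus strand: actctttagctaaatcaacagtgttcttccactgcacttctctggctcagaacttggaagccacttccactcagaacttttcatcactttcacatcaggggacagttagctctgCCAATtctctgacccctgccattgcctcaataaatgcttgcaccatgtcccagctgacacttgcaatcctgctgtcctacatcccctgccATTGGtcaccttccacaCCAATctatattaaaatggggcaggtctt
Acly, chr11:100528001-100528250, minus strand: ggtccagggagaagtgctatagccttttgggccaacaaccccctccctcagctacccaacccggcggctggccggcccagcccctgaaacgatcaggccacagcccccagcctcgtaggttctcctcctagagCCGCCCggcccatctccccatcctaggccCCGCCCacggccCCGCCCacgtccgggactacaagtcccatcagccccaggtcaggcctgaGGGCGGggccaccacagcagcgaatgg
Dhcr7, chr7:143822917-143823166, plus strand: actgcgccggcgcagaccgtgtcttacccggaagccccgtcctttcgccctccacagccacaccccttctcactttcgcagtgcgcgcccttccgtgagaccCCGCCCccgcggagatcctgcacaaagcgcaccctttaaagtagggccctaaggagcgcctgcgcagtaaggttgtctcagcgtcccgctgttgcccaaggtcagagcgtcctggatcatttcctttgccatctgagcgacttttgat
The letters TCACCCCAC in Hmgcs1, starting 137 bases before the start, were the only match to the sterol regulatory element in the 26 genes. That is 3.85% of the 26 genes, against 1.44% of the 9682 tested genes with a window, and 1.24% of all 32851 windows held one. With 1 gene, these shares cannot be told apart. CCAAT was found in at least 1 window of 22 of the 26 genes (84.6%), against 42.8% of the 9682 tested genes with a window. CCGCCC was found in 23 of 26 (88.5%) against 68.1%. The share of single windows with these letters was 37.4% for CCAAT and 35.7% for CCGCCC among all windows. The printed Acly and Dhcr7 stretches hold no CCAAT in either direction: Acly has it after the start, and Dhcr7 in another of its listed windows.

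The libraries held 16044078 to 30606394 recovered reads (median 19254498). Trem2, the targeted gene, was 31205, 32384 and 37459 in normal microglia, 51400.2, 53077 and 49346 in wild-type 5xFAD microglia and 38648, 37066, 53908 and 52324 in wild-type transplanted cells, and the 7 knockout libraries lay between 3962 and 5965, so Trem2 matched the label of every library. The homeostatic microglial genes P2ry12 and Tmem119 were present in all groups, with P2ry12 at 37026 to 67152 in microglia and at 6576 to 19783 in transplanted cells. All 12 homeostatic markers read here summed to 936623 to 1359648 in microglia and to 633155 to 779916 in transplanted cells. In 3 groups a pair (S22 with S23, S25 with S27, S30 with S31) was closer (chi-square per degree of freedom 4.98 to 9.86) than all other pairs within groups, which lay between 13.57 and 136. The labels do not say whether libraries are separate animals, and p-values measure only the spread between these libraries. S26 stood apart from S25 and S27: 15 of the 31 genes lay above both and 14 below both. The median absolute log2 difference was 0.48 in the 31 genes and 0.55 in all tested genes, so this distance was not particular to the 31. Neutrophil markers (11 of 12 measured) summed to 41768 to 125875 in knockout 5xFAD microglia against 3949 to 17086 in the other microglia, with S26 the lowest of its group. Oligodendrocyte markers (12 of 12 measured) summed to 25051 and 25369 in S30 and S31 and to 4535 to 11102 in the other 15 libraries, and one of them, Mog, was 794 and 825 in S30 and S31 against at most 21.6 elsewhere. Values are given below as normalized read counts, always in the library order above, and changes as log2 fold change of value plus 1 with its standard error (SE). A gene is called at a limma adjusted p below 0.05 over all 12074 tested genes, and "no overlap" means that every library of a group lay on one side of every library of the other.

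Wild-type 5xFAD microglia had the highest group mean of the 5 for 15 of the 31 genes (48.4%), against 15.2% of all tested genes. Their mean log2 value over the 31 genes was 9.28 to 9.36, above that of all other libraries, the highest being S31 at 9.14. Their summed values, 49663 to 52038, lay below those of S30 and S31 (52304 and 52976), which are wild-type transplanted cells. In 8 genes (Acly, Hmgcs1, Fdps, Fdft1, Sqle, Cyp51, Dhcr7 and Insig1) each of the 3 wild-type 5xFAD libraries lay above all 14 others. That is 25.8% of the 31 genes, and the same pattern was met in 2.27% of all tested genes. The 8 span the pathway from citrate cleavage by ATP-citrate lyase (Acly) to the last reduction by 7-dehydrocholesterol reductase (Dhcr7). The margin was narrowest in Fdft1, where the lowest of the 3 was 1526.27 and the highest of the others, S30, was 1525.93. In bulk RNA, a change in the number of cells of a type and a change of RNA per cell cannot be told apart.

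**Figure D1:**
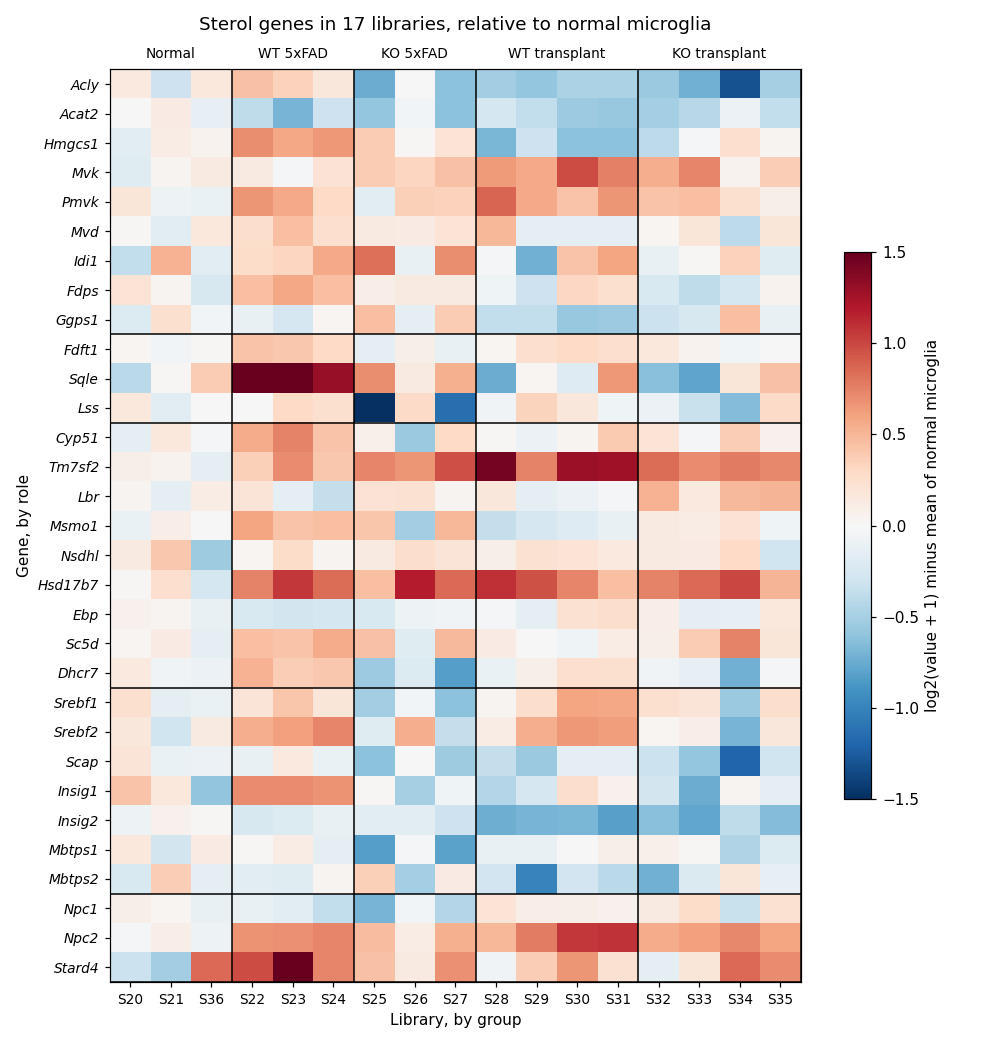
Each cell is log2(value + 1) of 1 gene in 1 library minus the mean of the 3 normal microglia libraries, with genes by role (rows, separated by lines) and libraries by group (columns). Colours end at 1.5 in either direction, a limit passed by 4 of 527 values, and the wild-type 5xFAD columns are the reddest for Hmgcs1, Sqle, Cyp51 and Insig1.

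The spread from the highest to the lowest group mean ran from 1.11-fold in Nsdhl, a demethylating dehydrogenase of the late pathway, to 3.29-fold in Sqle, with a median of 1.62-fold, and 5 genes passed 2-fold. Other groups stood at an end for 5 genes in all. All 3 normal libraries were above the other 14 for Insig2 and below them for Hsd17b7, Tm7sf2 and Npc2, and the wild-type transplanted cells were below all others for Ggps1. These patterns were met in 1.99%, 1.76% and 1.49% of all tested genes. Levels of different genes were compared only per kilobase of merged exons (GENCODE vM21). On that scale Npc2, the soluble lysosomal cholesterol carrier, was first in every group, at 1971 ± 123 (SD, n = 3) counts per kilobase in normal microglia. Stard4, a cytosolic carrier, was last in every group, at 5.50 ± 3.15 (SD, n = 3) there. Hmgcs1 moved from rank 13 of 31 in wild-type 5xFAD microglia to rank 22 in wild-type transplanted cells.

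The first comparison sets microglia of 5xFAD mice against normal microglia, both Trem2 wild type. Against normal microglia, Sqle, Hmgcs1 and Npc2 rose in wild-type 5xFAD microglia and none of the 31 genes fell. These are 3 of 31 (9.68%), against 2.83% of all tested genes called higher, 0.952% called lower and 3.78% in either direction. Without overlap, 16 of the 31 lay higher (51.6%) and 3 lower (9.68%), while 16.7% and 16.9% of all tested genes did so. The median log2 change of the 31 was 0.38 and that of all tested genes 0.00.

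Sqle, squalene epoxidase, makes the first oxygenation on the way to sterols and is a rate-limiting step. It stood at 123, 71.3 and 96.1 in normal microglia and at 325, 306 and 236 in wild-type 5xFAD microglia, a log2 change of 1.59 ± 0.36 (SE) with adjusted p = 0.0166. The lowest 5xFAD library, S24, was well above the highest normal one, S36. Hmgcs1, which joins acetyl units early in the pathway, stood at 512, 441 and 535 and at 805, 737 and 776. Its log2 change was 0.64 ± 0.17 (SE), adjusted p = 0.0375, and the libraries of each group lay close together with a clear gap between them. Npc2 hands cholesterol from digested lipoproteins to NPC1 in the lysosome. It stood at 10131, 10579 and 11450.4 and at 17127, 17239 and 17781, a log2 change of 0.70 ± 0.14 (SE) with adjusted p = 0.00756, again with no overlap. The Npc2 call held when any 1 of the 6 libraries was left out, Hmgcs1 lost its call without any 1 of them (adjusted p up to 0.178) and with TMM scaling, and Sqle lost it without S20, S21, S22 or S23 (adjusted p up to 0.1001).

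Of the 9 genes of carbon supply and mevalonate, 1 was called and 7 had a positive change, with a median log2 change of 0.32. Fdps, which makes farnesyl pyrophosphate, was 200.5, 274 and 244 in normal and 326, 355 and 326 in 5xFAD microglia, without overlap but not called (adjusted p = 0.183). Acat2, the cytosolic thiolase at the entry of the pathway, went the other way, from 453, 497 and 538 to 379, 306 and 400.4, and was not called (adjusted p = 0.194). Acat2 has a near copy, Acat3, in the table, and the reads of both could be mixed.

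The 3 genes from farnesyl pyrophosphate to lanosterol all had positive changes. Fdft1, squalene synthase, stood at 1258, 1268 and 1205 and at 1677, 1649 and 1526, a log2 change of 0.38 ± 0.11 (SE) with adjusted p = 0.0646, just outside the threshold. Fdft1 shares 774 exon bases (18.3% of its exons) with Ctsb on the opposite strand, and whether reads were counted by strand is not given in the sources used here. Ctsb, a very abundant lysosomal protease, rose in the same comparison by a log2 of 0.91 ± 0.16 (SE) (adjusted p = 0.00193), so the reads of Fdft1 may include some of Ctsb, which was not tested. Lss, lanosterol synthase, differed little (208, 233 and 186 against 209, 256 and 247).

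Among the 9 genes that turn lanosterol into cholesterol, 7 had positive changes, 6 lay higher without overlap and none was called. Cyp51, the lanosterol demethylase, stood at 470.1, 437 and 532 and at 705, 804 and 641 (log2 change 0.58 ± 0.20 (SE), adjusted p = 0.126). Msmo1, the methylsterol oxidase, stood at 1014, 953 and 1088 and at 1527, 1367 and 1393 (log2 change 0.49 ± 0.19 (SE), adjusted p = 0.194). In both, all 5xFAD libraries were above all normal ones, by a smaller step than in Sqle. Ebp, the sterol isomerase, was the exception without overlap, 1968, 2208 and 2184 against 1813, 1745 and 1769.8.

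The 7 regulators did not move as a group, with a median log2 change of -0.01 and no call. Srebf2, the SREBP that drives mainly sterol genes, was 814, 832 and 602 in normal and 1082, 1140.4 and 1238 in 5xFAD microglia (log2 change 0.63 ± 0.24 (SE), adjusted p = 0.179). Insig1, itself a target of SREBP and a brake on it, was 142, 288 and 239 and 349, 349 and 342 (log2 change 0.69 ± 0.27 (SE), adjusted p = 0.186). The 5xFAD libraries of Insig1 were nearly equal, and the normal ones were widely spread, with S36 the lowest. Insig2, the second brake, was slightly lower without overlap, at 1134, 1064 and 1172 against 947, 972 and 1037. Scap and the proteases Mbtps1 and Mbtps2 overlapped between the groups, with log2 changes of -0.03, -0.01 and -0.10.

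**Figure D2:**
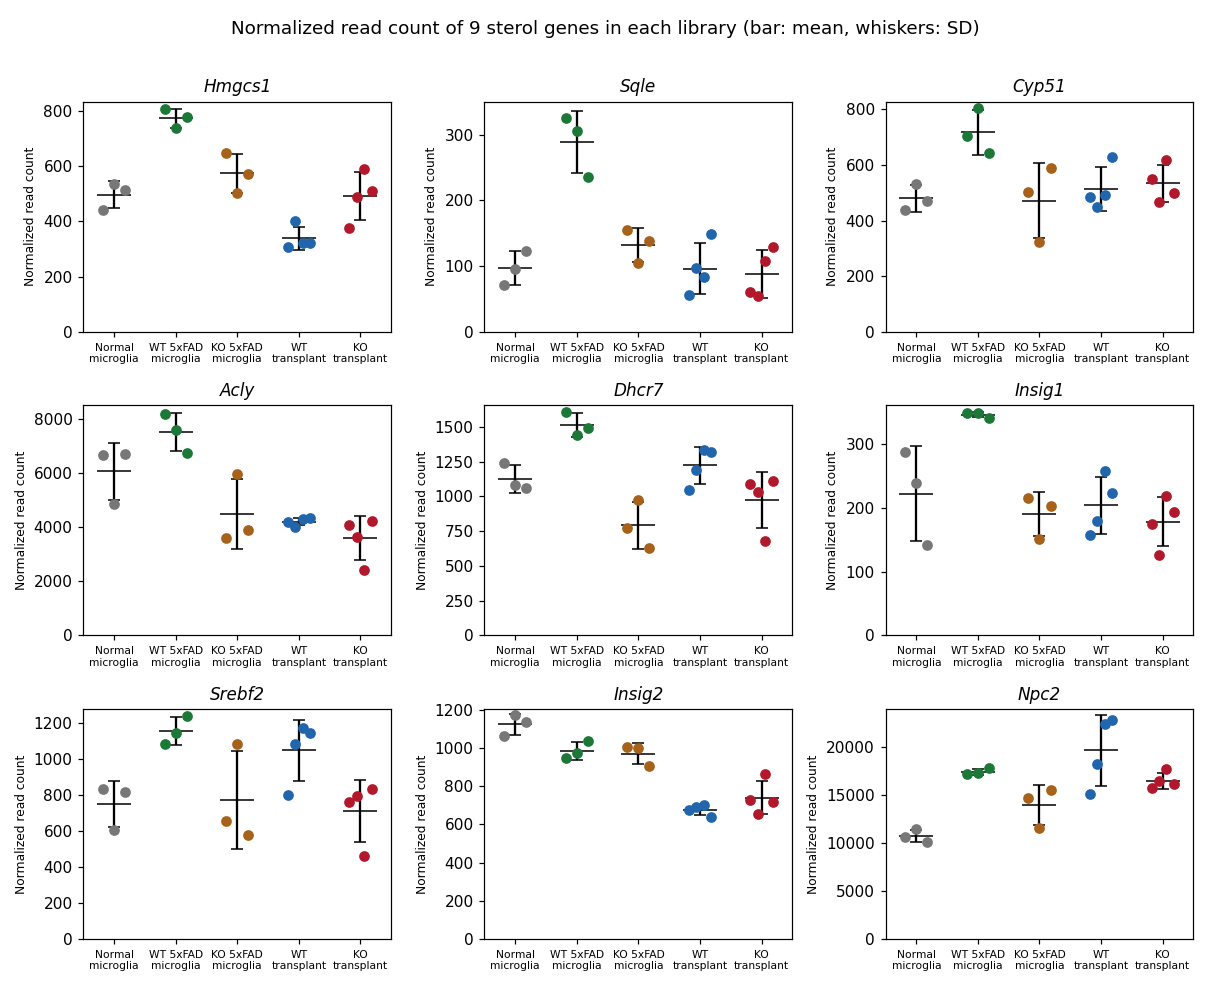
Normalized read count of 9 of the genes in each library (points), with the group mean (bar) and SD (whiskers), on axes that start at 0. The 3 wild-type 5xFAD points stand above all others for Hmgcs1, Sqle, Cyp51, Acly, Dhcr7 and Insig1, while Insig2 is lower in the 8 transplant libraries than in all 9 microglia libraries.

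Astrocytes are the main makers of cholesterol in the adult brain, so their markers were read beside these values. All 10 astrocyte markers were measured, and they summed to 8767 to 11631 in wild-type 5xFAD and 7497 to 9099 in normal microglia. Endothelial markers (10 of 10 measured) summed to 1823 to 2097 and 877 to 1422. No marker of either list was at 0 in a wild-type 5xFAD library. The astrocyte gene Gja1 was 879, 779 and 289 in S22, S23 and S24 and 357, 155 and 171 in normal microglia, and Aldoc was 1276, 1157 and 589.9 against 930.0, 506 and 467. Of the astrocyte markers all 10 had a positive change against normal microglia and 1 was called, and of the endothelial markers 9 had one and 2 were called. In knockout 5xFAD microglia the astrocyte sum was 7701 to 12359. The part of these cells in the sterol values was not tested.

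In Trem2-knockout 5xFAD microglia against normal microglia, no gene of the 31 was called, against 3.91% of all tested genes (2.7% higher, 1.21% lower). At an unadjusted limma p below 0.05 there were 9 (3 higher, 6 lower), a share of 29% beside 28.7% of all tested genes, edgeR called none and DESeq2 called 2. The median log2 change was 0.12, against 0.03 for all tested genes, and 4 genes lay higher and 2 lower without overlap (11.7% and 8.46% of all tested genes). The highest were Tm7sf2, a sterol reductase, at 123, 117 and 145 against 66.8, 78.4 and 76.1 (log2 change 0.79 ± 0.22 (SE), adjusted p = 0.0504), and Hsd17b7, a ketosteroid reductase, at 65.8, 109 and 86.7 against 39.6, 48.2 and 57.1 (adjusted p = 0.079). Both were also above normal in wild-type 5xFAD microglia and in every transplant library. Tm7sf2 shares 532 exon bases (12.1%) with Vps51 on the same strand, whose own log2 change was -0.40. Sqle and Hmgcs1 changed by a log2 of 0.46 (95% interval -0.31 to 1.22) and 0.20 (-0.15 to 0.56) here. The result turned on S26: without it 4 of the 31 were called higher and 8 lower, beside 38.2% of all tested genes. With S26 as the only knockout library, the median log2 change of the 31 was 0.01.

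The next comparison sets Trem2 wild-type against Trem2-knockout 5xFAD microglia. Dhcr7, Acly and Fdft1 were called higher in wild-type than in knockout cells, and no gene was called lower. These 3 of 31 (9.68%) compare with 2.59% of all tested genes called higher, 2.5% called lower and 5.09% in either direction. Without overlap, 12 of the 31 were higher (38.7%) and 1 lower (3.23%), while 11.3% and 10.9% of all tested genes were. The median log2 difference was 0.33, and that of all tested genes 0.01. This comparison shares its wild-type libraries with the one against normal microglia, so the genes that stand out in both rest on the same 3 libraries.

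Dhcr7 stood at 1607, 1445 and 1489.8 in wild-type and at 771, 972 and 632 in knockout 5xFAD microglia, with normal microglia between them at 1059, 1238 and 1079. The log2 difference was 0.96 ± 0.18 (SE), adjusted p = 0.00352, and it stayed called when any 1 of the 6 libraries was left out. The call was lost with the closest pairs averaged, and over all fits the log2 difference ran from 0.64 to 1.11. Dhcr7 was the only one of the 31 genes with wild-type 5xFAD above and knockout 5xFAD below normal microglia, both without overlap. Acly, which supplies cytosolic acetyl-CoA for sterols and fatty acids, stood at 8183, 7627 and 6774 and at 3604, 5980.1 and 3917. Its log2 difference was 0.77 ± 0.20 (SE), adjusted p = 0.0302, with S26 between the other knockout libraries and the wild-type ones. Fdft1 stood at 1677, 1649 and 1526 and at 1137, 1326 and 1154, a log2 difference of 0.43 ± 0.11 (SE) with adjusted p = 0.0292. The groups did not overlap, and Ctsb, which shares its exon bases, differed by a log2 of 0.52 ± 0.16 (SE) (adjusted p = 0.0738).

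Further genes without overlap missed the threshold. Insig1 was 349, 349 and 342 against 216, 151 and 204 (log2 difference 0.88 ± 0.27 (SE), adjusted p = 0.0677). Cyp51 was 705, 804 and 641 against 504, 324 and 588 (log2 difference 0.64 ± 0.20 (SE), adjusted p = 0.0694). Sqle was 325, 306 and 236 against 154, 104 and 138 (log2 difference 1.13 ± 0.36 (SE), adjusted p = 0.0839). In all 3 every wild-type library was above every knockout one. Srebf1, the SREBP that drives mainly fatty acid genes, was 1945, 2279 and 1936 against 1187, 1658 and 1109 (log2 difference 0.66 ± 0.21 (SE), adjusted p = 0.0834), and Hmgcs1 805, 737 and 776 against 646, 502 and 569 (adjusted p = 0.142). Of the 7 regulators, 6 had a positive difference, with a median log2 difference of 0.55, and none was called.

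S26 split several genes of the knockout group. Lss was 56.5 and 94.3 in S25 and S27 but 255 in S26, which lay at the wild-type level of 209, 256 and 247. Msmo1 went the other way, 1361 and 1434 in S25 and S27 and 710.3 in S26, below every other library of the 17. Srebf2 was 653 and 579 in S25 and S27 and 1082 in S26. Without S26, 7 genes were called higher (Acly, Dhcr7, Fdft1, Lss, Mbtps1, Srebf1 and Srebf2) and 1 lower (Ggps1), beside 30.5% of all tested genes called. With S26 as the only knockout library, the median log2 difference of the 31 genes was 0.20, and without S26 it was 0.35. Acly and Fdft1 kept their calls only in the fit without S26 among those that left out 1 library, with adjusted p up to 0.172 and 0.133 in the others. Neutrophil markers, highest in S25 and S27, moved with this contrast (9 of 11 called lower in wild-type cells), as did monocyte markers (8 of 10), and their part in it was not tested.

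**Figure D3:**
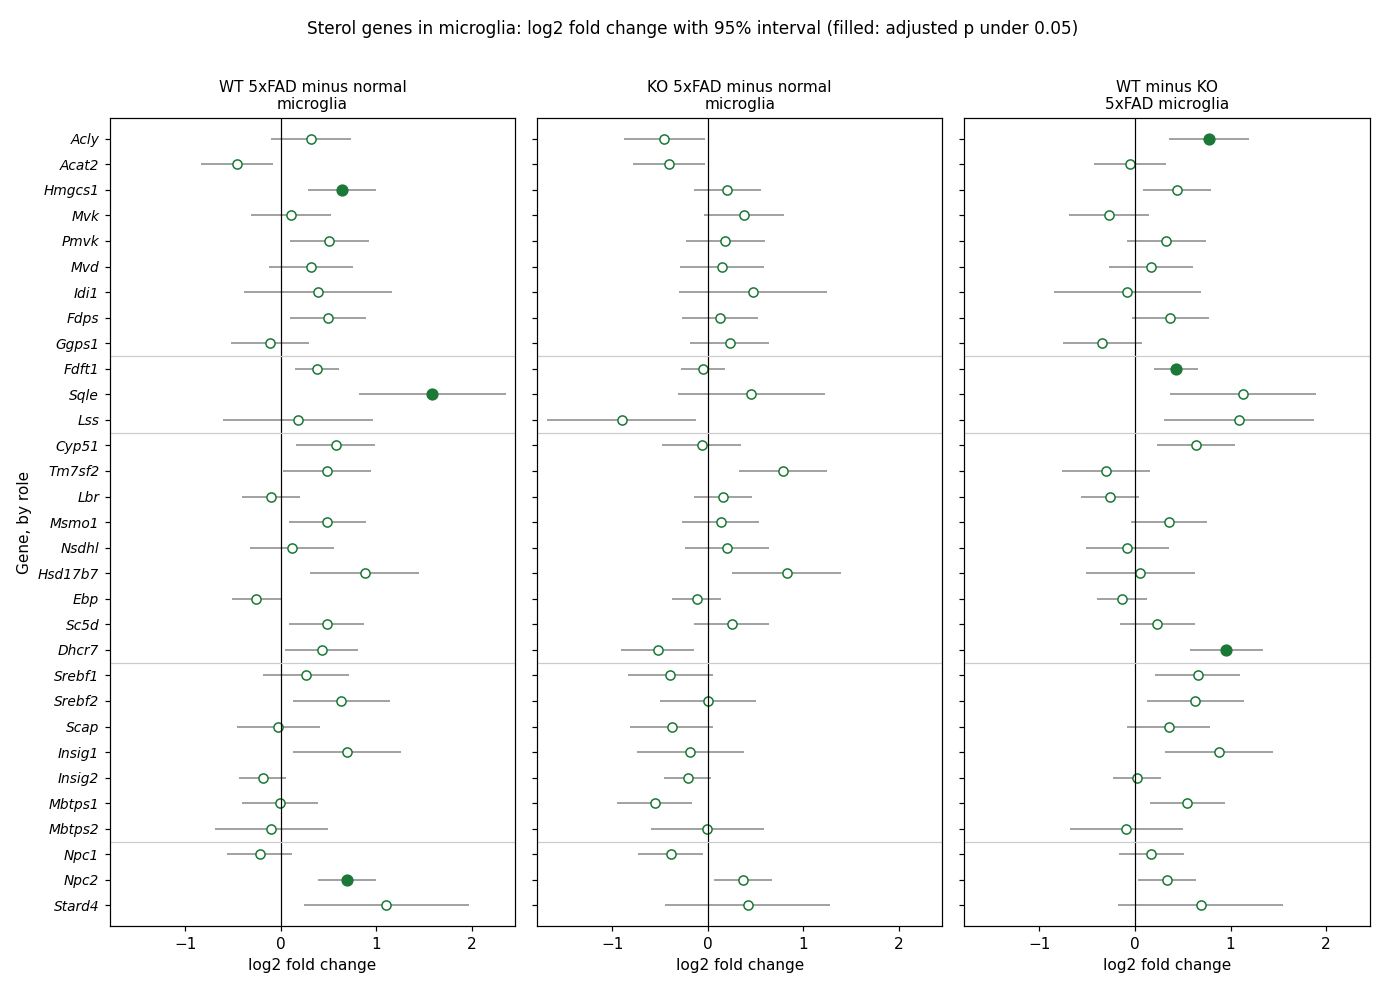
Log2 fold change (points) with its 95% interval (lines) for the 31 genes in the 3 comparisons of microglia, with filled points at an adjusted p below 0.05. The points of the left and right panels lie mostly above 0 (22 of 31 in each), and those of the middle panel are split (17 of 31 above). Of all tested genes, 50.4%, 52.6% and 50.8% had a change above 0 in the comparisons of the left, middle and right panels.

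Transplanted cells were then set against microglia of the same Trem2 genotype in 5xFAD mice. In wild-type transplanted cells, 6 of the 31 genes fell against wild-type 5xFAD microglia (Hmgcs1, Sqle, Acly, Msmo1, Insig1 and Insig2) and 3 rose (Tm7sf2, Mvk and Ebp). In this comparison 28.2% of all tested genes were called, 14.6% lower and 13.6% higher, so the members' shares (19.4% lower, 9.68% higher) were near the background. Without overlap, 15 of the 31 lay lower (48.4%) and 4 higher (12.9%), against 21.2% and 19.9% of all tested genes. The median log2 difference was -0.27, and that of all tested genes was -0.03. The comparison shares the wild-type 5xFAD libraries, which were high for many of these genes, with both comparisons above. Of the 12 homeostatic microglial markers, 10 were called lower and none higher, with log2 differences from -5.47 to 0.03. Markers of other cells moved as well. Astrocyte markers summed to 5520 to 6093 in wild-type transplanted cells against 8767 to 11631 in wild-type 5xFAD microglia, with 4 of 10 called lower and 1 higher. T and NK cell markers (9 of 10), neutrophil markers (9 of 11) and monocyte markers (6 of 10 tested) were called higher, with none called lower. Their part in the sterol differences was not tested.

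Hmgcs1 was 306, 399, 322 and 322 in wild-type transplanted cells, below each of the 9 microglia libraries. Its log2 difference was -1.20 ± 0.16 (SE), adjusted p = 1.16e-05, the smallest of any of the 31 genes in any comparison. Sqle was 55.9, 96.7, 82.8 and 149, around the range of normal microglia, a log2 difference of -1.65 ± 0.34 (SE) with adjusted p = 0.00126. Acly was 4192, 4022, 4323 and 4336, in a narrow band below every wild-type microglia library, a log2 difference of -0.83 ± 0.19 (SE) with adjusted p = 0.00259. Msmo1 was 795, 854, 888 and 939 (log2 difference -0.72 ± 0.18 (SE), adjusted p = 0.00532), below normal microglia too. These 4 calls and that of Insig2 were kept when any 1 of the 7 libraries was left out. Insig1 was 158, 179.7, 258 and 223 (log2 difference -0.78 ± 0.25 (SE), adjusted p = 0.0254), with the normal microglia spread over the same range, and lost its call without S22, S23, S24, S28 or S29 (adjusted p up to 0.0749).

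Among the genes that rose, Tm7sf2 was 200.2, 124, 181 and 179 against 94.3, 121 and 97.7 (log2 difference 0.70 ± 0.21 (SE), adjusted p = 0.016). Mvk, mevalonate kinase, was 225, 215, 287 and 245 against 159, 142 and 168 (log2 difference 0.63 ± 0.19 (SE), adjusted p = 0.0172). Ebp was 2099, 1923, 2483 and 2541 against 1813, 1745 and 1769.8 (log2 difference 0.34 ± 0.12 (SE), adjusted p = 0.0346). So calls went in both directions, in shares near those of all tested genes (19.4% lower and 9.68% higher, against 14.6% and 13.6%). The 3 that rose did so by less than the 4 strongest that fell. All 3 lost their calls with the closest pairs averaged, and Ebp also with TMM scaling and with edgeR. S30 and S31, the libraries with the most oligodendrocyte transcripts, were highest for Mvk and Ebp, and without them none of the 3 was called higher, while 7 were called lower (the 6 above and Fdps), beside 19.2% of all tested genes called in either direction.

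Insig2 was low in both kinds of transplant. It was 678, 691, 699 and 637 in wild-type and 729, 653, 863 and 716 in knockout transplanted cells, and every one of the 8 lay below all 9 microglia libraries, whose lowest was 907. The log2 difference from microglia of the same genotype was -0.54 ± 0.11 (SE) (adjusted p = 0.00115) in wild-type and -0.40 ± 0.11 (SE) (adjusted p = 0.013) in knockout cells. The second call was lost without S25 (adjusted p = 0.0525).

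In knockout transplanted cells against knockout 5xFAD microglia, Insig2 was the 1 gene called lower and Npc1 the 1 called higher, beside 25.4% of all tested genes. The share of the 31 genes called, 3.23% in each direction, was below that of all genes, 13.7% lower and 11.7% higher. Without overlap, 2 lay lower (Insig2 and Fdps) and 1 higher (Npc2), against 15.6% and 12.3% of all tested genes. The median log2 difference was -0.03. Of the 12 homeostatic microglial markers, 8 were called lower and none higher, with log2 differences from -4.88 to 0.22. Npc1, the membrane protein that takes cholesterol from NPC2 out of the lysosome, was 3708, 4066, 2675 and 3956 against 2076, 3284 and 2493 (log2 difference 0.47 ± 0.15 (SE), adjusted p = 0.0299). The groups overlapped, with S34 the lowest transplant and S26 the highest microglia library, and the call was lost without any of S25, S27, S32, S33 and S35 (adjusted p up to 0.194). Hmgcs1 was 375, 489, 588 and 509 against 646, 502 and 569 (log2 difference -0.23, 95% interval -0.56 to 0.10), and Sqle was 60.8, 54.1, 108 and 128 against 154, 104 and 138 (-0.66, -1.38 to 0.06). Leaving out S26 gave 5 genes called higher and 3 lower, beside 37.5% of all tested genes.

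**Figure D4:**
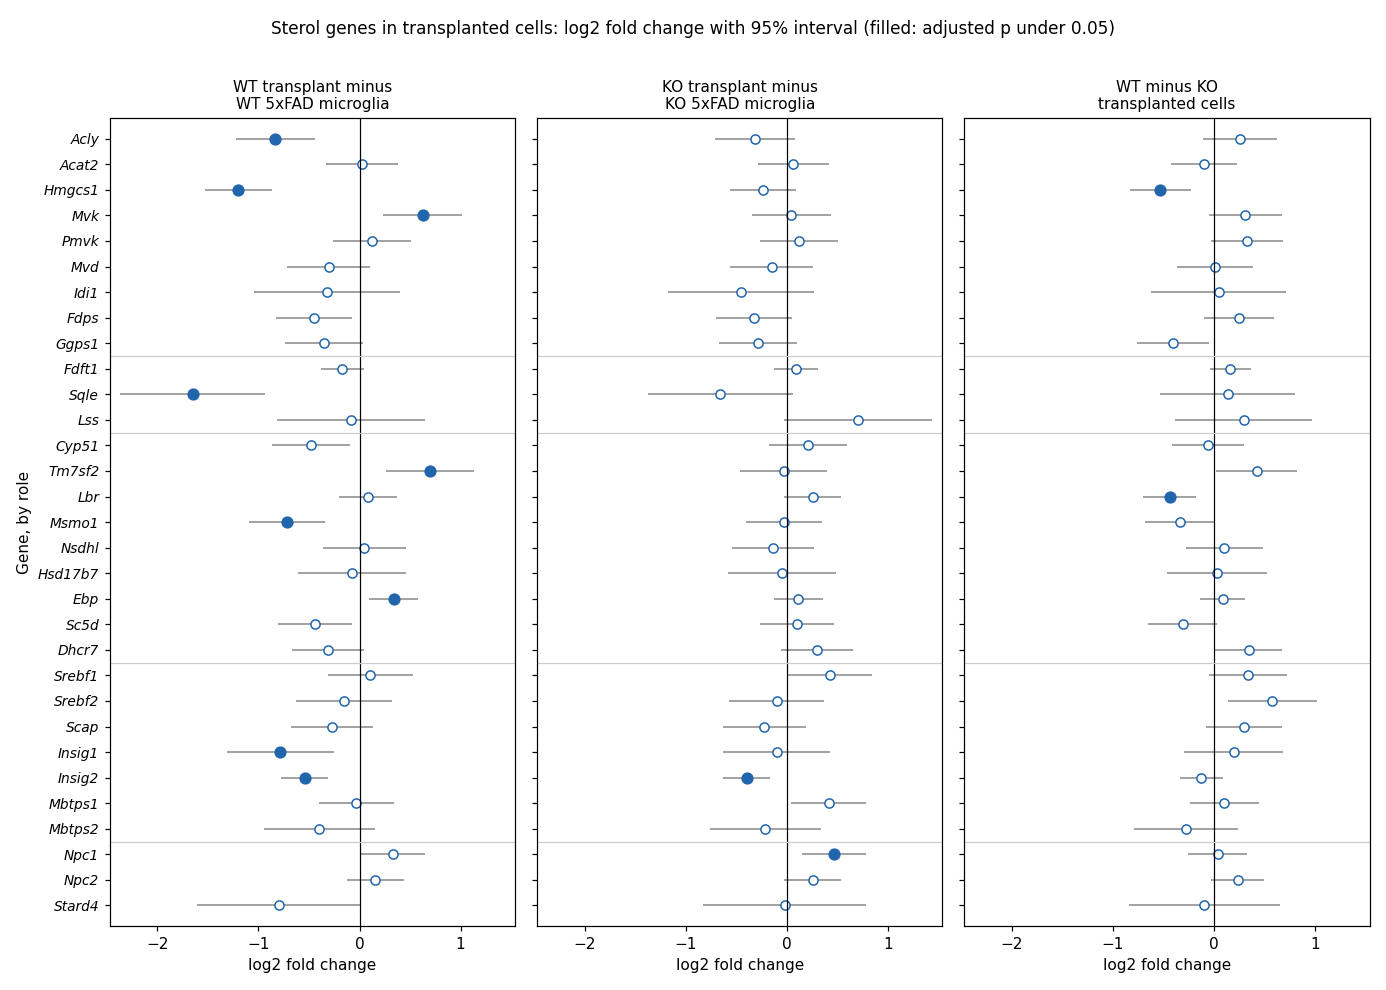
Log2 fold change (points) with its 95% interval (lines) for the 31 genes in the 3 comparisons that involve transplanted cells, with filled points at an adjusted p below 0.05. The left panel holds 9 filled points, 6 to the left of 0 and 3 to the right, the middle panel holds 2 and the right panel holds 2, both to the left.

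Between transplanted cells of the 2 donor genotypes in the same host, Hmgcs1 and Lbr were lower in wild-type cells and none of the 31 was higher. These are 2 of 31 (6.45%), against 2.99% of all tested genes called lower, 3.75% called higher and 6.74% in either direction. Without overlap, 2 lay lower (Ggps1 and Msmo1) and none higher, against 5.96% and 7.74% of all tested genes. The median log2 difference was 0.10, and that of all tested genes 0.05. Hmgcs1 was 306, 399, 322 and 322 in wild-type and 375, 489, 588 and 509 in knockout transplanted cells, a log2 difference of -0.53 ± 0.14 (SE) with adjusted p = 0.0396. The groups overlapped through S29 (399) and S32 (375). Lbr, a nuclear membrane protein with sterol reductase activity, was 1691, 1373, 1417 and 1497 and 2173, 1676, 2117 and 2146, a log2 difference of -0.44 ± 0.13 (SE) with adjusted p = 0.0451, with S33 the one knockout library inside the wild-type range. Lbr shares 440 exon bases (9.24% of its exons) with Dnah14 on the opposite strand. Dnah14 differed by a log2 of -0.42 ± 0.18 (SE) and was not called (adjusted p = 0.151), and whether reads of the genes were mixed was not tested. The Hmgcs1 call was lost without S30, S31, S33, S34 or S35 (adjusted p up to 0.123), and the Lbr call without S29, S30, S31, S32, S34 or S35 (adjusted p up to 0.141). T and NK cell markers (10 of 11 measured) summed to 1944 to 4804 in knockout and 378 to 3278 in wild-type transplanted cells. Of the oligodendrocyte markers 6 of 12 were called higher in wild-type cells, and the part of either list in these differences was not tested.

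S34 stood apart among the knockout transplanted libraries for all 7 regulators, below the other 3 for Srebf1, Srebf2, Scap and Mbtps1 and above them for Insig1, Insig2 and Mbtps2. Srebf1 was 2019, 1941, 1155 and 2047, Srebf2 759, 793, 458 and 834 and Scap 2016, 1677, 1105 and 2035 in S32, S33, S34 and S35. In wild-type transplanted cells Srebf2 was 798, 1079, 1168 and 1142, a log2 difference of 0.58 ± 0.21 (SE) that was not called (adjusted p = 0.0908). S28 overlapped the knockout cells and the other 3 lay above them.

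Whether the difference between Trem2 genotypes was unlike in microglia and in transplanted cells was tested as an interaction. Hmgcs1 was the 1 gene of 31 called, beside 2.82% of all tested genes (0.87% with a positive and 1.95% with a negative interaction). Its wild-type minus knockout log2 difference was 0.44 in microglia and -0.53 in transplanted cells, and the difference between them was 0.97 ± 0.22 (SE), adjusted p = 0.0228. Wild-type cells were thus on average higher than knockout cells in microglia and lower in transplants. The microglia difference alone was not called, and the transplant call was kept in 3 of 8 fits with 1 library left out. The interaction was lost without S22, S23, S24 or S27 (adjusted p up to 0.0727) and without S30 and S31 together (log2 0.91, adjusted p = 0.115). The interaction was positive for 26 of the 31 genes (83.9%), against 50.3% of all tested genes. For Dhcr7, which was called in microglia, it was 0.61 with adjusted p = 0.181, so the Dhcr7 difference was not shown to be particular to microglia.

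Of the 31 genes, 14 were called in at least 1 comparison (45.2%) and 17 in none, and 42.8% of all tested genes were called in at least 1. Among the 17 are both SREBP genes, their escort and both proteases. Srebf1 was 1596, 2012 and 1539 in normal microglia and 1758, 2048, 2577 and 2550.4 in wild-type transplanted cells, with S30 and S31 the highest of all 17 libraries. Scap was 2357, 2871 and 2345 in normal, 2317, 2776 and 2339.5 in wild-type 5xFAD and 1645, 2527 and 1739.7 in knockout 5xFAD microglia and 1962, 1713, 2280.3 and 2291 in wild-type transplanted cells, with S25, S27 and S29 low in their groups. Mbtps1, the site-1 protease, was 1749.8, 3048 and 1778 in knockout 5xFAD microglia, where S26 again stood at the level of the other microglia (2571 to 3471) and S25 and S27 far below it. Mbtps2, the site-2 protease, lay between 89.8 and 233 over all 17 libraries.

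Among the enzymes called in no comparison, Pmvk and Mvd, which phosphorylate and decarboxylate mevalonate intermediates, changed by log2 values between -0.31 and 0.51 over the 6 comparisons of groups. Idi1, the isomerase of the isoprene units, lay between 31.8 and 95.6, where few reads limit what can be seen. Ggps1, which lengthens farnesyl to geranylgeranyl pyrophosphate, was 503 to 580 in wild-type transplanted cells and 596 to 1024 in the other libraries. Sc5d, a late desaturase, was 602, 593 and 647 in wild-type 5xFAD and 479, 439, 419 and 476 in wild-type transplanted cells (log2 difference -0.44 ± 0.17 (SE), adjusted p = 0.0686). Stard4, also a target of SREBP2, was 56.0, 86.6 and 46.9 in wild-type 5xFAD and 51.0, 22.1 and 19.0 in normal microglia, a log2 change of 1.10 ± 0.41 (SE) that was not called (adjusted p = 0.169). S36 lay among the 5xFAD libraries.

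Related genes outside the 31 were read from lists chosen by pathway. Among other genes of sterol regulation, Rnf145, a ubiquitin ligase of the endoplasmic reticulum, was 3189.7, 3182 and 2831 in wild-type and 1794, 3420.2 and 1977 in knockout 5xFAD microglia and 5694, 6161, 4719.7 and 4906 in wild-type and 6989, 6747, 5113 and 7000.3 in knockout transplanted cells. It was higher in transplanted cells than in microglia of the same genotype, by a log2 of 0.80 ± 0.18 (SE) (adjusted p = 0.00286) in wild-type and 1.48 ± 0.18 (SE) (adjusted p = 7.46e-06) in knockout cells. Erlin2, a scaffold protein of the same membrane, was lower in wild-type transplanted cells, by a log2 difference of -0.45 ± 0.09 (SE) (adjusted p = 0.000698), and differed by 0.01 ± 0.09 (SE) in knockout cells, which was not called (adjusted p = 0.96).

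Of the 16 fatty acid genes, many of them SREBP1 targets, 2 rose (12.5%) and none fell in wild-type 5xFAD against normal microglia, beside 2.83% and 0.952% of all tested genes. Acaca, acetyl-CoA carboxylase, the committed step of fatty acid synthesis, was 48.7, 65.3 and 112 and 417, 378 and 416 there and 153, 152 and 105 in knockout 5xFAD microglia. Its log2 change was 2.49 ± 0.34 (SE) (adjusted p = 0.000166) against normal and 1.57 ± 0.34 (SE) (adjusted p = 0.0095) against knockout, larger than in any of the 31 sterol genes in the first of these. The second call was lost without S27 (adjusted p = 0.0627). Scd2, a desaturase, rose by a log2 of 1.03 ± 0.28 (SE) (adjusted p = 0.0424) against normal, a call lost without S20, S21, S22, S23 or S36 (adjusted p up to 0.189). In wild-type transplanted cells 6 of the 16 fell (37.5%, beside 14.6% of all tested genes) and none rose against wild-type 5xFAD microglia, among them Thrsp (-2.12, adjusted p = 1.45e-06), Acaca (-1.99, adjusted p = 0.000103) and Scd1, another desaturase (-2.99, adjusted p = 0.00238). In knockout transplanted cells 4 fell (25%) and 2 rose (12.5%) against knockout microglia, beside 13.7% and 11.7% of all tested genes, so the share that rose was near the background.

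Of the 17 genes of cholesterol uptake, esterification and transfer, 3 rose (17.6%) and none fell in wild-type 5xFAD against normal microglia, beside 2.83% and 0.952% of all tested genes. Ch25h, which makes 25-hydroxycholesterol, a sterol that holds SREBP processing back, was 61.2, 60.3 and 70.4 and 542, 636 and 740.3, a log2 change of 3.29 ± 0.38 (SE) (adjusted p = 3.76e-05). It was 154, 55.8 and 220.0 in knockout 5xFAD microglia, and the log2 difference of wild-type over knockout was 2.35 ± 0.38 (SE) (adjusted p = 0.00096). In transplants Ch25h was 663, 853, 1443 and 1268 and 237, 345, 405 and 237, with a log2 difference of 1.76 ± 0.33 (SE) (adjusted p = 0.00883), a call lost without S30 and S31 together. Thus in each setting every wild-type library held more Ch25h than every knockout library. Soat1, which esterifies cholesterol for storage, rose by a log2 of 0.76 ± 0.12 (SE) (adjusted p = 0.000772) and Nceh1, which hydrolyses the esters, by 1.87 ± 0.25 (SE) (adjusted p = 0.000124) in the same comparison with normal microglia. Both were at their highest in transplanted cells, Soat1 at 5862 ± 573 (SD, n = 4) in wild-type and 6289 ± 184 (SD, n = 4) in knockout cells against 3780.1 ± 5.78 (SD, n = 3) in wild-type 5xFAD microglia. Against microglia of the same genotype, Nceh1 was called higher in knockout transplanted cells (log2 difference 1.28, adjusted p = 0.000393) but not in wild-type ones.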

How the data were processed

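Bulk RNA libraries of sorted mouse brain cells were measured in 17 samples. The deposited table holds a signal per gene and library, read counts that the authors divided by 1 size factor per library. The submitters' processing notes name the builds mm10 and GRCm38.p6 and the tools RSEM, HTSeq, bcl2fastq, DESeq2 (as version 3.17) and STAR 2.5.2b. Annotation, strand setting, gene filter and the counter behind the values: not given in the sources used here. Whole reads were recovered from the steps of the values, and at least 99.99% came out whole within 0.02.

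Values entered limma 3.58.1 (R 4.3.3) as log2(value + 1) with a mean per group over all 17 libraries (12 residual degrees of freedom, trend on). A gene was tested if 3 or more libraries reached a value of 10 (12074 genes; 1427 were removed). Tests were two-sided, p-values were adjusted by Benjamini-Hochberg over all tested genes, and genes were called below 0.05. The code was tested on simulated data. Alternatives were edgeR 4.0.16 and DESeq2 1.42.0 on recovered reads, TMM scaling, a pseudocount of 5, no filter, only the compared groups, and libraries left out or averaged. The fit without S25 and S27, and the attention to S34, were chosen after seeing the data.

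The 31 genes, the lists and the tests were chosen with earlier results of these data known. Genes called at least once and Srebf1, Srebf2, Insig1 and Scap are given library by library, others by ranges and counts or where they lay without overlap. Of each related list, up to 4 genes with the smallest p are named in a comparison with a call. Some results for related genes are not reported here. Library totals of recovered reads are in the report.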

Additional observations from a re-analysis of the deposited data

Results flagged for a closer look

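In transplanted cells, groups of 4 libraries, 4 of the 62 groups of values tested (31 genes in both transplant groups) had 1 library far from the other 3 by Dixon's criterion at 95%. Chance alone picks out about 1 group in 20. Hmgcs1 was 399 in S29, against 306 to 322 in the other wild-type transplanted cells. Mvd was 302 in S28, against 193 in each of the other 3. Lbr was 1676 in S33, against 2117 to 2173 in the other knockout transplanted cells. Srebf1 was 1155 in S34, against 1941 to 2047. The groups of microglia have 3 libraries each and were not tested this way.

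The Trem2 difference in Hmgcs1 differed between microglia and transplanted cells by a log2 of 0.97 in the interaction test, with wild-type cells higher in microglia and lower in transplants. The microglia difference alone was not called, and the transplant groups overlapped. The interaction call was kept in 10 of 14 fits with 1 library left out.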

How the results depend on the processing

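No paired analysis was possible because the columns of 4 of the 5 groups carry no replicate numbers. Over 111 alternative fits of the number of the 31 genes called, 62 stayed on the same side or within 1.5 times, 35 gave fewer and 14 more. In wild-type 5xFAD against normal microglia, 3 genes became 5 with DESeq2, 12 with only the compared groups and 1 with the closest pairs averaged, and 1 to 2 with 1 library left out. In knockout 5xFAD against normal microglia, 0 became 1 with a pseudocount of 5, 2 with DESeq2 and 0 to 12 with 1 library left out. Between wild-type and knockout microglia, 3 became 7 with DESeq2, 1 with only the compared groups, 0 with pairs averaged and 1 to 8 with 1 library left out. Between transplanted cells, 2 became 0 with only the compared groups, without S30 and S31 or with pairs averaged, and 0 to 4 with 1 library left out. Wild-type transplanted cells against microglia gave 9, then 14 with only the compared groups, 5 with pairs averaged and 6 to 9 with 1 library left out. Knockout transplanted cells gave 2, then 0 with only the compared groups or pairs averaged and 0 to 8 with 1 library left out. The interaction gave 1, then 0 without S30 and S31 or with pairs averaged and 0 to 5 with 1 library left out. The numbers called over all tested genes moved as well. With 1 library left out, 457 in wild-type 5xFAD against normal microglia became 270 to 325, and 472 in knockout cells became 46 to 4601. In the other settings the 457 became 242 to 1829, where 3 of the 31 became 1 to 12. Between genotypes in microglia, 615 became 298 to 3673 with 1 library left out. So these changes were not particular to the 31 genes. The cause was not tested. Osbp, a sterol transfer gene outside the 31, turned from higher to a log2 difference of -0.057 in knockout transplanted cells against microglia without S25 and S27.

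Counts over all genes moved likewise. Against normal microglia, 457 calls in wild-type 5xFAD cells became 242 to 1829 and 472 in knockout cells became 2 to 4601. Between genotypes, 615 in microglia became 167 to 3673 and 814 in transplants 15 to 1886, and 341 interactions became 75 to 1666. Transplanted cells against microglia gave 3399 (2001 to 3919) in wild-type and 3062 (1999 to 4516) in knockout cells. TMM factors differed from the deposited scaling by up to 7.88%.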

Other observations

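Of 18 genes that use isoprenoids for prenylation, dolichol and ubiquinone, 2 rose and 1 fell in wild-type transplanted cells and 1 rose and 1 fell in knockout ones, against microglia of the same genotype. These shares (11.1% and 5.56%, 5.56% and 5.56%) were below those of all tested genes (13.6% and 14.6%, 11.7% and 13.7%). Coq2, which attaches the tail of ubiquinone, was lower in wild-type (-0.96, adjusted p = 0.000138) and in knockout (-0.96, adjusted p = 0.000158) transplanted cells. Rce1, a protease of prenylated proteins, was higher in both (0.61 and 0.55).

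A further list held genes of cholesterol efflux and of the oxysterol receptor LXR. Apoe, the main lipoprotein component made in the brain, rose in wild-type 5xFAD against normal microglia by a log2 of 1.13 ± 0.22 (SE) (adjusted p = 0.00394). It was higher still in transplanted cells than in microglia, by 3.94 in wild-type and 3.97 in knockout cells. Abca1, which exports cholesterol to lipoproteins, was higher in knockout transplanted cells by 1.31 ± 0.18 (SE) (adjusted p = 1.99e-05). Nr1h3, the LXR alpha receptor, and Pltp, a lipid transfer protein, were higher in wild-type than in knockout transplanted cells, by 1.55 (adjusted p = 0.0247) and 0.56 (adjusted p = 0.0409), and their interactions with the setting were -2.21 (adjusted p = 0.0402) and -1.03 (adjusted p = 0.0245). These calls were unstable. With 1 library left out, the Nr1h3 difference lost its call in 4 of 8 fits and the Pltp difference in 5 of 8, and the interactions lost theirs in 9 and 5 of 14. Without S30 and S31 together all 4 calls were lost. Lpcat3, which remodels membrane phospholipids, was lower in wild-type (-0.52) and in knockout 5xFAD (-0.47) than in normal microglia, calls that were each lost in 5 of 6 fits with 1 library left out, and lower again in the transplanted cells (-1.11 and -1.21).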
